A study of Mus musculus with 2 samples.

Results

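The platelet-derived growth factor (Pdgf) genes are the ligand genes Pdgfa, Pdgfb, Pdgfc and Pdgfd and the receptor genes Pdgfra and Pdgfrb. They were picked out by gene symbol, and all 6 were found among the 38926 genes listed in each of 2 libraries. RNA came from pleuroperitoneal folds (PPFs), the paired embryonic folds that give rise to connective tissue of the diaphragm, dissected by hand from wild-type mouse embryos at embryonic day 12.5 after the heart and lungs had been taken out. The mice were of mixed background (129s/SvlmJ-C57/BL6J per the labels), and each library, replicate 1 and replicate 2, pooled 2 PPF pairs and was made from polyadenylated RNA. Per the series' text, the profile was made to help prioritize genes from human work on congenital diaphragmatic hernia, a birth defect that leaves a gap in the diaphragm. There is 1 group, so no condition, stage or tissue can be compared. The series' text calls the libraries biological replicates, but no source used here ties them to litters, so the spread between them may be in part technical.

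Pdgf ligands are secreted dimers that bring receptor chains together at the cell surface, which switches on the tyrosine kinase inside the cell. Chains A and C act mainly through the alpha receptor encoded by Pdgfra, chain D mainly through the beta receptor encoded by Pdgfrb, and chain B through both. In many embryonic organs Pdgfra marks mesenchyme that receives A and C chains from nearby cells, whereas Pdgfrb marks pericytes and vascular smooth muscle, which B chains from endothelium recruit to vessels. Pdgfra has also been examined as a candidate gene for congenital diaphragmatic hernia.

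Replicate 1 held 26370253 counts and replicate 2 held 23255957. The 6 Pdgf genes took 33221 and 29876 of these, or 0.126% and 0.128%. Levels are given in TPM, in which each count is divided by the length of its gene and every library then has an equal total, so genes can be compared with each other. Means are given with the SD over both libraries. Intervals in TPM are exact Poisson 95% intervals of the count. They cover counting error only, and without molecular identifiers the reads cannot be taken as independent molecules. The folds are a mixture of cell types, so fewer cells of a type and less RNA per cell cannot be told apart.

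All 6 Pdgf genes had at least 1 TPM in both libraries, a level reached by 44.4% of all genes in the files and by 63.4% of those that code for protein. All 6 also had at least 10 TPM in both. The receptors stood above the ligands: the order by mean TPM was Pdgfra, Pdgfrb, Pdgfc, Pdgfa, Pdgfb and Pdgfd. Each neighbour in that order was separate in both libraries except Pdgfb and Pdgfd, which changed places between the libraries.

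**Figure D1:**
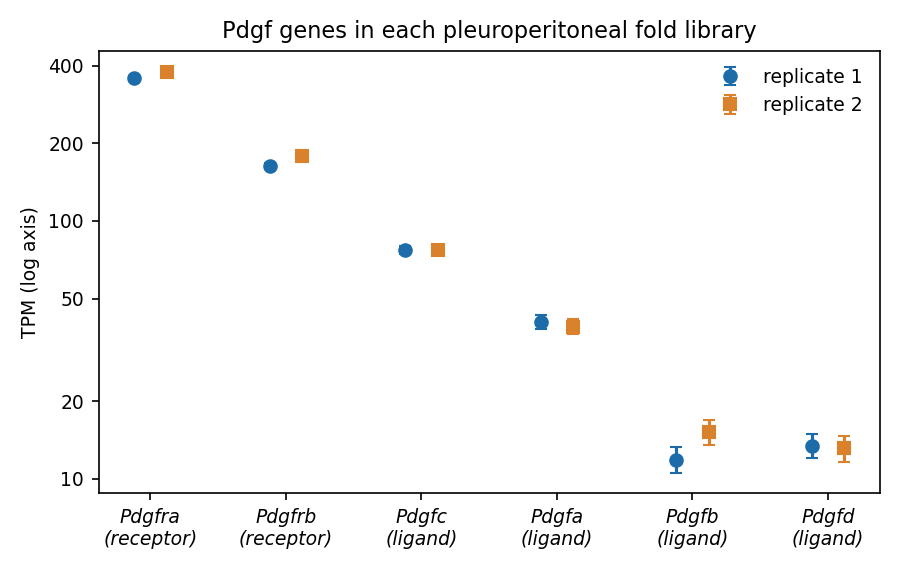
TPM (log axis) of the 6 Pdgf genes in replicates 1 and 2, ordered by mean, with exact Poisson 95% intervals as bars. Pdgfra lies highest at 359.8 and 376.7 TPM, and the ligands Pdgfb and Pdgfd lie lowest and overlap.

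Pdgfra (chromosome 5, 75152291 to 75198204, plus strand, positions as GRCm38), the alpha receptor gene, had 20569 counts in replicate 1 and 18446 in replicate 2. This was 359.8 TPM (interval 354.9 to 364.8) and 376.7 TPM (371.2 to 382.1), with a mean of 368.3 ± 11.9 TPM (SD, n = 2). Pdgfra lay above 98.8% and 99.0% of the protein-coding genes, at rank 252 and 221 of 21459. The GENCODE M21 annotation gives it 27 separate exon blocks and 10024 exon bases, against the 6737 bases that the authors used as its length, and with its length alone changed to that of M21 its mean was 247.5 TPM. With M21 lengths for the 35719 listed genes found in M21, and TPM taken over those genes only, its mean was 308.6 TPM. This also changes the TPM total: Pdgfrb, whose length stayed the same, rose from 170.6 to 212.8 TPM. In the same annotation 652 of the Pdgfra exon bases (6.50%) overlap other annotated genes, whose counts were not analysed here.

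Pdgfrb (chromosome 18, 61045150 to 61085061, plus strand), the beta receptor gene, had 7592 and 7084 counts. It stood at 163.3 TPM (159.7 to 167.1) in replicate 1 and 177.9 TPM (173.8 to 182.1) in replicate 2, a mean of 170.6 ± 10.3 TPM (SD, n = 2), above 95.8% and 96.3% of the protein-coding genes. Per base of gene length Pdgfra was 2.20 times Pdgfrb in replicate 1 (exact binomial 95% interval 2.15 to 2.26) and 2.12 times in replicate 2 (2.06 to 2.18). Pdgfra thus made up 68.8% and 67.9% of the receptor TPM. With the M21 length for Pdgfra alone it was 1.48 and 1.42 times Pdgfrb.

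Pdgfc (chromosome 3, 81036416 to 81214040, plus strand) encodes a ligand chain with a CUB domain that must be cut off outside the cell before the chain can bind its receptor. It was the highest ligand gene in both libraries, with 3340 and 2844 counts, 77.4 TPM (74.8 to 80.02) in replicate 1 and 76.9 TPM (74.1 to 79.8) in replicate 2. Its mean was 77.1 ± 0.334 TPM (SD, n = 2), and it held 54.1% and 53.3% of the ligand TPM. Pdgfc shares 147 of its exon bases with Gm16000, an antisense gene with 180 and 150 counts, which is 5.39% and 5.27% of the size of the Pdgfc counts. At the mean density of Gm16000 the shared stretch would hold 1.77% and 1.73% of the Pdgfc counts.

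Pdgfa (chromosome 5, 138976014 to 138995037, minus strand), a ligand chain released in active form after processing inside the cell, had 1072 and 883 counts. It stood at 40.5 TPM (38.1 to 43.01) and 38.9 TPM (36.4 to 41.6), a mean of 39.7 ± 1.10 TPM (SD, n = 2), and held 28.3% and 27.03% of the ligand TPM. Per base Pdgfc was 1.91 times Pdgfa in replicate 1 (1.78 to 2.05) and 1.97 times in replicate 2 (1.83 to 2.13), so the libraries gave the same order with overlapping intervals. In GENCODE M21, 813 exon bases of Pdgfa (26.1%) lie in the antisense gene 6330403L08Rik. At that gene's mean density of 285 and 241 counts over 5521 bases, the shared stretch would hold 3.91% and 4.02% of the Pdgfa counts, and all counts of that gene equal 26.6% and 27.3% of them. The length used for Pdgfa, 3119 bases, equals its M21 exon total, of which 813 bases lie outside the listed gene span, so the length and position columns may come from different annotations. This is also the size of the overlap with 6330403L08Rik, and whether the 2 stretches are the same was not checked. If they are, and if counts came from the listed span only, the shared stretch would hold no Pdgfa counts. With the 2306 exon bases inside the span as its length, Pdgfa would stand at 54.8 and 52.7 TPM and Pdgfc at 1.41 and 1.46 times that.

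Pdgfb (chromosome 15, 79995900 to 80014808, minus strand), the chain that endothelium uses to recruit pericytes, had 293 counts in replicate 1 and 322 in replicate 2. It stood at 11.8 TPM (10.5 to 13.3) and 15.2 TPM (13.6 to 16.9), a mean of 13.5 ± 2.37 TPM (SD, n = 2), with counting intervals that did not overlap between the libraries. Neither did those of the receptors, whereas those of Pdgfa, Pdgfc and Pdgfd did. Pdgfd (chromosome 9, 6168612 to 6377519, plus strand), the other CUB-domain chain, had 355 and 297 counts, 13.4 TPM (12.1 to 14.9) and 13.1 TPM (11.7 to 14.7), a mean of 13.3 ± 0.223 TPM (SD, n = 2). Per base Pdgfd was 1.13 times Pdgfb in replicate 1 (0.968 to 1.33) and 0.863 times in replicate 2 (0.735 to 1.01), and both intervals include 1. With the lengths used, the order of these 2 genes was therefore not detectable at this depth. It also depends on those lengths. With the M21 length for Pdgfb alone, Pdgfb stood at 8.30 and 10.6 TPM, below Pdgfd in both libraries. For Pdgfd the length used was 3119 bases, and 1359 of its M21 exon bases lie outside the listed span. Its level with only the 1795 bases inside the span was not computed.

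Summed, the ligand genes stood at 143.1 TPM in replicate 1 and 144.1 TPM in replicate 2, and the receptor genes at 523.2 and 554.6 TPM, which is 3.66 and 3.85 times the ligand sum. Pdgfa and Pdgfc, the chains that act mainly through the alpha receptor, together made up 82.4% and 80.4% of the ligand TPM. Pdgfb and Pdgfd made up 17.6% and 19.6%. The A and C chains stood 4.67 times above the B and D chains in replicate 1 and 4.10 times in replicate 2. The higher receptor gene and the higher ligand pair were thus those of the alpha arm in each library. These are sums of transcript levels and not of protein.

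**Figure D2:**
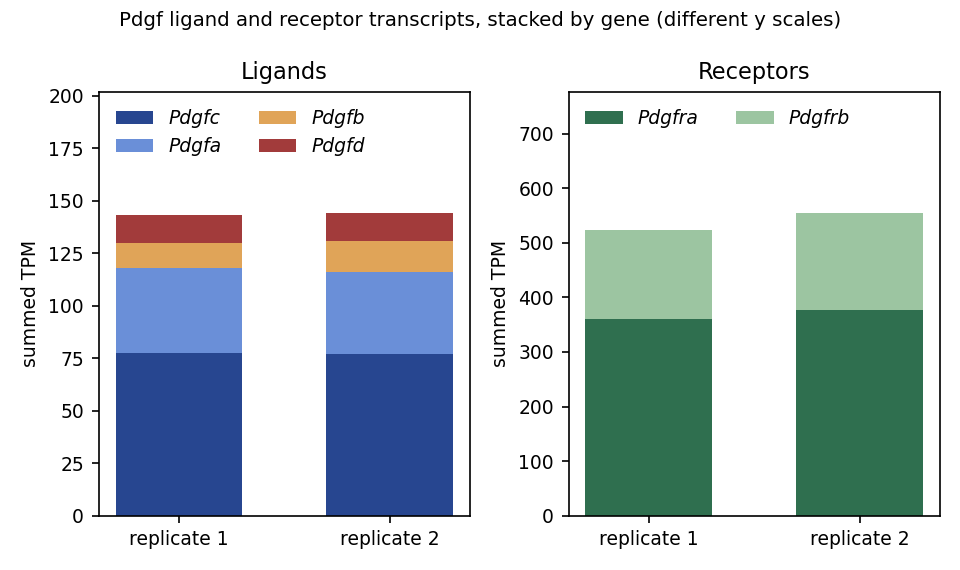
Summed TPM of the ligand genes (left) and of the receptor genes (right) in replicates 1 and 2, stacked by gene, each bar starting at 0 and the panels with different scales. Pdgfc fills 54.1% and 53.3% of the ligand bars, and Pdgfra 68.8% and 67.9% of the receptor bars.

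The receptors were placed among 58 genes listed as receptor tyrosine kinases, taken from general knowledge. Many of that family, but not all, are cell surface receptors for growth factors. Pdgfra was the highest of the 58 in both libraries, and held 12.7% and 12.5% of their summed TPM. With the M21 length for Pdgfra alone it was at rank 2 by mean. With M21 lengths for every gene found in M21 it was at rank 1. Next came Ptk7, the gene of a planar polarity co-receptor, at 259.01 and 251.96 TPM, and Ephb4, the gene of an ephrin receptor of veins, at 185.0 and 179.4 TPM. Pdgfrb was at rank 4 in both, with 5.78% and 5.91% of the sum. In replicate 1 Ephb4 lay above Pdgfrb (163.3 TPM) by more than the Pdgfrb libraries differed. In replicate 2 the 2 genes were close, at 179.4 TPM for Ephb4 and 177.9 TPM for Pdgfrb. Below Pdgfrb stood Epha3, an ephrin receptor gene, at 143.6 and 165.2 TPM, which overlapped Pdgfrb in range, and Axl, the receptor gene for Gas6, at 144.4 and 151.8 TPM. The median of the 58 was 18.5 and 20.3 TPM.

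**Figure D3:**
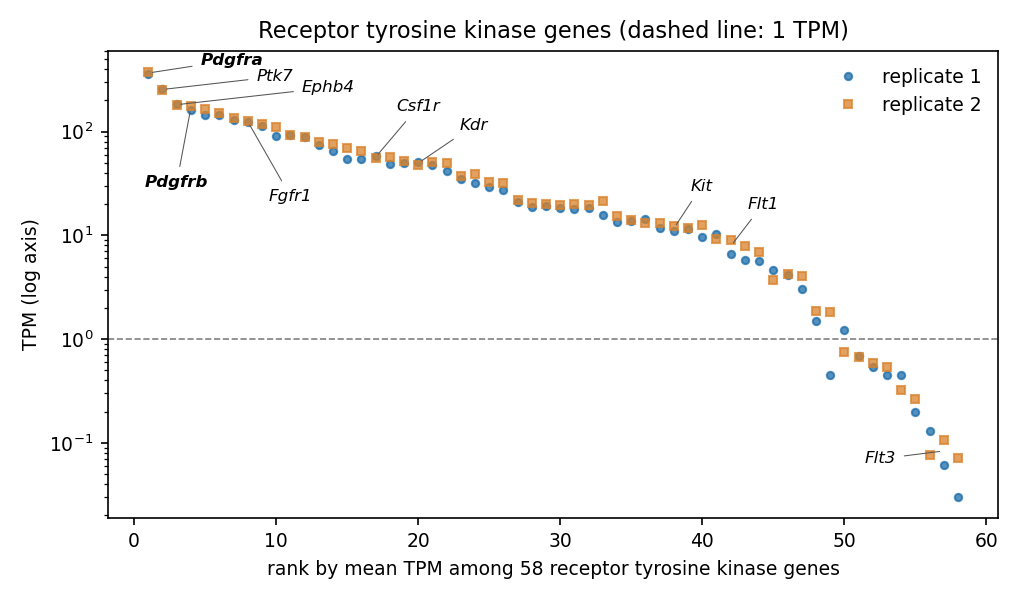
TPM (log axis) of 58 receptor tyrosine kinase genes in replicates 1 and 2, ordered by mean TPM. Pdgfra is at rank 1 and Pdgfrb at rank 4 in both libraries, while the related Kit and Flt3 genes lie much lower.

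The closest relatives of the Pdgf receptors are the stem cell factor receptor gene Kit, the macrophage growth factor receptor gene Csf1r and Flt3, followed by the Vegf receptor genes Kdr, Flt1 and Flt4. All 6 stood below Pdgfrb. Csf1r was highest at 58.0 and 55.7 TPM, followed by Kdr at 51.4 and 48.1 TPM and Flt4 at 13.5 and 15.3 TPM, and Flt3 was lowest with 4 and 6 counts. Of the related Vegf ligand genes, all 5 had at least 1 TPM in both libraries. Vegfa led at 90.7 and 93.3 TPM, above Pdgfc, followed by Vegfb at 75.6 and 71.0 TPM and Vegfc at 28.4 and 27.0 TPM, and Pgf was lowest by mean at 15.9 and 18.2 TPM. Figf, the files' symbol for Vegfd, was lower than Pgf in replicate 2 at 17.9 and 17.3 TPM.

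Pathway genes outside the family were listed by role, 50 genes in all, of which 49 had at least 1 TPM in both libraries and whose median was 38.1 TPM. Among 8 genes for ligand activation the highest was Plat, which encodes tissue plasminogen activator, the protease known to release active C chains, at 258.8 and 262.1 TPM. Furin and Pcsk7, whose proteases can process precursors inside the cell, followed at 35.3 and 38.2 TPM and at 29.3 and 30.2 TPM. Plau, for urokinase, a protease that can activate D chains, stood at 23.5 and 24.5 TPM. St14, for the membrane protease matriptase, was the 1 pathway gene under the level of 1 TPM, with 10 counts in each library.

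Among 7 genes for co-receptors and ligand-binding matrix, Sparc, a matrix protein that binds B chains, stood at 1425 and 1468 TPM. Lrp1, a large endocytic receptor that associates with the beta receptor, had 169.2 and 178.3 TPM. Ndst1, an enzyme that sulfates heparan sulfate, had 112.05 and 127.1 TPM, and Itgb3, an integrin subunit gene, was lowest at 4.15 and 5.53 TPM. The 24 adaptor and effector genes were led by Grb10, an imprinted adaptor gene, at 897.6 and 951.0 TPM, then Crk at 139.4 and 144.4 TPM and Ptpn11, the Shp2 phosphatase gene, at 107.9 and 114.6 TPM, and Stat5a was lowest at 3.01 and 3.07 TPM. The 11 genes for down-regulation and scaffolds ran from Spry2, a feedback inhibitor gene of Ras signalling, at 82.5 and 90.06 TPM, Slc9a3r1, a scaffold gene, at 81.3 and 77.7 TPM, and Spry1 at 67.6 and 65.8 TPM down to the phosphatase gene Ptprj at 8.88 and 9.77 TPM. The role medians were 24.0 TPM for activation, 87.8 for co-receptors and matrix, 41.5 for adaptors and effectors and 42.6 for down-regulation, beside 27.7 for the Vegf ligands.

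**Figure D4:**
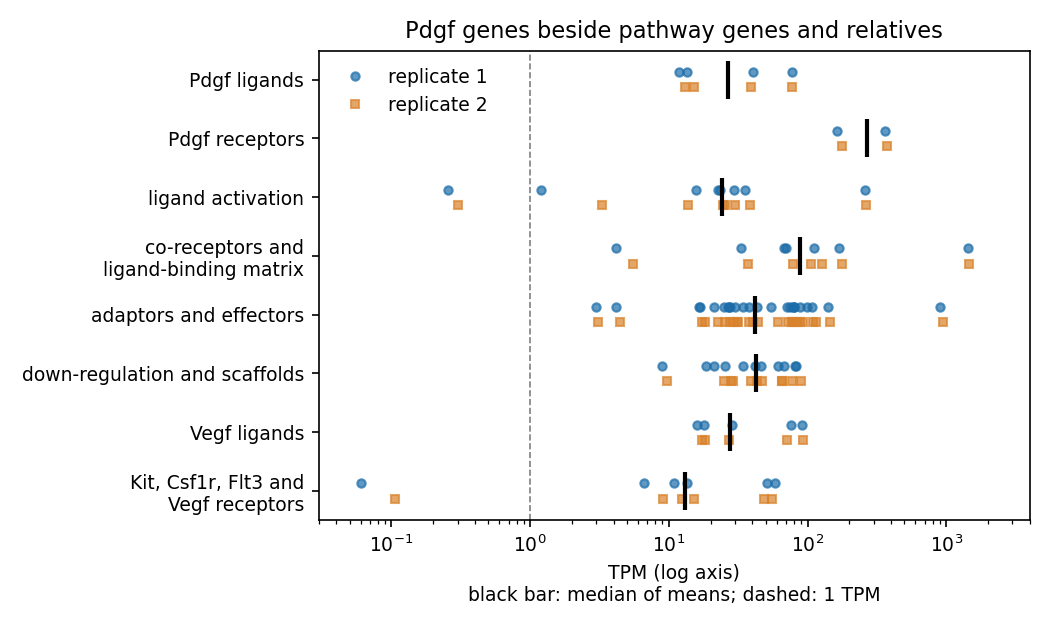
TPM (log axis) in replicates 1 and 2 of the Pdgf genes, of pathway genes by role and of related ligand and receptor genes, with the median of the means as a black bar. Both Pdgf receptor genes lie above every other gene shown except Sparc, Grb10, Plat and Lrp1, of which Plat lies between them and Lrp1 close to Pdgfrb.

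Between the libraries the Pdgf genes differed little. Counts scaled by TMM factors gave each gene's log2 ratio, replicate 2 over replicate 1, and an exact two-sided binomial test was run on 19433 genes with Benjamini-Hochberg adjustment. This compares these 2 libraries only, with counting error as the only noise. Of the 6 genes 2 were higher in replicate 2 at an adjusted p under 0.05, none was lower and none differed by 2-fold. Over all genes tested 8.85% were higher and 8.65% lower, 17.5% in either direction, and 1.26% differed by at least 2-fold. Among all genes with 10000 or more counts over both libraries 56.5% passed, among those with 1000 to 10000 counts 27.0% and among those with 100 to 1000 counts 11.2%, so depth sets much of this share.

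Pdgfb was higher in replicate 2 by 1.25-fold, which is 0.32 on the log2 scale (0.088 to 0.55 at 95%). Its adjusted p from the exact binomial test was 0.0372, with a range of 0.0159 to 1 over 7 other settings. Pdgfrb was higher by 1.06-fold, which is 0.084 on the log2 scale (0.038 to 0.13). Its adjusted p from that exact test was 0.0041, with a range of 5.11e-06 to 1. Neither passed once the spread between libraries over all genes was added, under which 0.751% of all genes passed (edgeR exact test with a common dispersion, adjusted p = 1 for each, unadjusted p = 0.118 for Pdgfb and 0.61 for Pdgfrb). The log2 ratio of Pdgfra was 0.027 (-0.0016 to 0.056, exact binomial adjusted p = 0.213), which became 0.066 (exact binomial adjusted p = 0.000105) with the scaling implied by the TPM. That scaling places replicate 2 higher by 0.039 for every gene.

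The remaining ligand genes had ratios just under 0 on the log2 scale whose intervals included 0. These were -0.095 for Pdgfa (-0.23 to 0.034), -0.048 for Pdgfc (-0.12 to 0.025) and -0.073 for Pdgfd (-0.30 to 0.15), with exact binomial adjusted p-values of 0.369, 0.441 and 0.768.

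Of the 50 pathway genes 18 were higher in replicate 2 and 1 was lower, with a median log2 ratio of 0.062, beside -0.014 over all genes tested. Over all genes 8.85% were higher and 8.65% lower, and 27.0% passed in either direction at the depth of 1000 to 10000 counts. The edgeR exact test with a common dispersion left 1 higher. The only pathway gene past 2-fold was Plg, the plasminogen gene, with 28 and 66 counts (log2 ratio 1.42, exact binomial adjusted p = 0.000109). Plasminogen is made in the liver, and 7 of 8 hepatoblast genes were also higher in replicate 2, with a summed level of 116.3 and 303.8 TPM. The highest were Afp (58.5 and 149.8 TPM), Alb (35.9 and 103.6 TPM) and Apoa1 (11.0 and 22.6 TPM), none of the 8 was at 0 counts, and their part in the Plg difference was not tested.

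Markers of cell types known to use Pdgf signals were detected. All 8 pericyte genes had at least 1 TPM in both libraries, a level that 63.4% of protein-coding genes reached. They summed to 301.9 and 333.8 TPM, led by Notch3 (103.8 and 116.4 TPM), Mcam (94.8 and 108.7 TPM) and Anpep (42.7 and 38.4 TPM). Lower were Rgs5 (27.2 and 31.2 TPM), Cspg4 (12.05 and 13.9 TPM), Kcnj8 (10.02 and 9.49 TPM) and Abcc9 (9.71 and 11.5 TPM). Of the 8 pericyte genes 3 were higher and 1 lower in replicate 2, with a median log2 ratio of 0.16. One of the 3 was Vtn, which the liver also makes, with 30 and 64 counts (log2 ratio 1.28), and without it 2 of 7 were higher and the median was 0.16. Over all genes 8.85% were higher and 8.65% lower. All 8 endothelial genes were detected at that level too, summing to 240.4 and 288.6 TPM, led by Cdh5 (64.9 and 82.1 TPM), Eng (44.04 and 50.2 TPM) and Tie1 (32.0 and 38.9 TPM), with 4 higher, none lower and a median of 0.13. The Vegf receptor genes were not on the endothelial list and went both ways. Kdr was lower in replicate 2 (log2 ratio -0.13, exact binomial adjusted p = 0.0047). Flt1 was higher (0.41, exact binomial adjusted p = 2.93e-06), and Flt4 did not pass (0.13, exact binomial adjusted p = 0.17). No gene of the pericyte or endothelial list was at 0 counts. The medians of both lists lay above 0, as did the ratios of Pdgfb and Pdgfrb, and their part in those differences was not tested. Other lists were as high: the median was 0.14 for neural crest and Schwann precursor genes and 0.14 for the related receptors. It was 0.34 for cardiac genes, of which only 2 of 5 had enough counts to be tested, and 0.085 for skeletal muscle.

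Smooth muscle, platelet and fibroblast lists had medians nearer to 0 than these. The 6 smooth muscle genes summed to 1196 and 1181 TPM, with 1 lower, none higher and a median of -0.021. Most of that sum was Acta2 (879.9 and 888.5 TPM) and Tagln (232.5 and 207.05 TPM), followed by Smtn (70.4 and 71.5 TPM). The rest of the list was low, with Cnn1 at 7.66 and 8.31 TPM, Lmod1 at 3.13 and 2.86 TPM and Myh11 at 2.31 and 2.72 TPM. The 7 megakaryocyte and platelet genes, a further source of Pdgf chains, summed to 62.5 and 65.1 TPM, of which Pf4 (34.2 and 36.2 TPM), Gp1bb (18.8 and 18.5 TPM) and Itga2b (3.52 and 4.16 TPM) were highest, and 0 of 7 passed the binomial test in either direction (median 0.059). The 13 fibroblast and mesenchyme genes were all detected and summed to 8422 and 8529 TPM. Highest were Col1a1 (2798 and 2822 TPM), Col3a1 (2507 and 2535 TPM) and Col1a2 (1334 and 1309 TPM). Of the 13 genes 3 were higher and 6 lower, with a median of -0.0038, beside 0.027 for Pdgfra itself. Over all genes 8.85% were higher and 8.65% lower. At 10000 or more counts, as for these 3 collagen genes, all among the 6 lower, 56.5% of all genes passed. The platelet genes had under 1000 counts over both libraries, where 11.2% (100 to 1000) and 3.54% (10 to 100) of all genes passed.

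**Figure D5:**
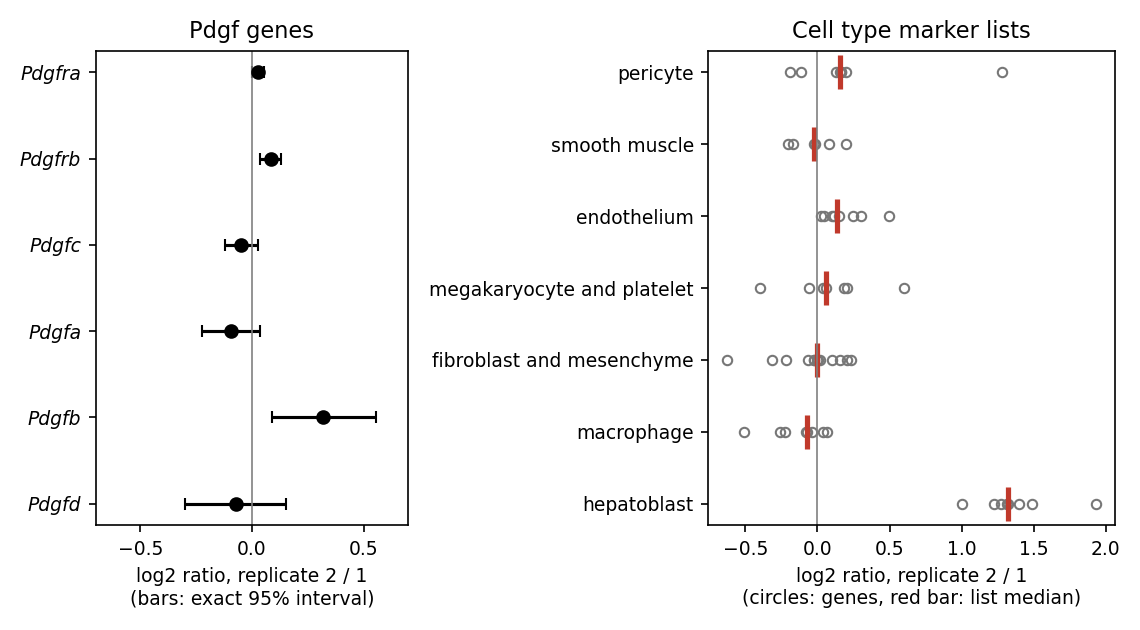
Log2 ratio of replicate 2 to replicate 1 for the 6 Pdgf genes with exact 95% intervals (left) and for genes of 7 cell type lists as circles with the list median as a red bar (right). The intervals of Pdgfb and Pdgfrb lie above 0, and the hepatoblast genes lie farthest from 0.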

How the data were processed

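The submitters' processing notes list featureCounts, SAMtools 1.3, STAR 2.4.0a and the build mm9. No source used here gives the strand setting. Of 35719 symbols also in GENCODE M21 (GRCm38), 56.3% had identical and 99.7% overlapping positions, so positions are given as GRCm38. Each file lists a raw count per gene, deposited unnormalised by the authors, and a TPM value that the authors computed from count and gene length. Depth was 26370253 and 23255957 counts. A gene at 0 counts could hold up to 0.114 and 0.129 CPM (3 counts).

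Means, SDs, shares and ranks were computed from the TPM. Ratios between libraries used counts, TMM factors from edgeR 4.0.16 (R 4.3.3) and an exact binomial test with Benjamini-Hochberg adjustment over genes whose counts summed to 10 or more, tested on simulated data. DESeq2 1.42.0 gave size factors for an alternative. No quasi-likelihood fit was made, as 1 group has no contrast. Intervals used SciPy 1.17.1.

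The members and lists were chosen with earlier results of these data known. Named were the 6 genes, the 3 highest and the lowest of each role, genes of the role and relative lists past a 1.5-fold difference with adjusted p under 0.05, the kinases next to the receptors in rank, the 3 highest marker genes and any at 0, the 3 protein-coding genes nearest in level to each receptor, and genomic neighbours. The rule did not cover Plau, Vtn, Figf, Flt1, Cnn1, Lmod1, Myh11, Rgs5, Cspg4, Kcnj8 and Abcc9, which were picked with their values known. Emr1, Tmem8c and Figf stand for the listed Adgre1, Mymk and Vegfd. Lists of skeletal muscle, mesothelium, neural crest, erythroid, macrophage, urogenital, lung and cardiac markers are given only under the additional observations. Alternatives were other scalings, gene lengths, count minimums and thresholds, a common dispersion, and each library alone. Changing the length of Pdgfra, Pdgfb or Pdgfa alone, and leaving out Vtn, were chosen after seeing the data.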

Additional observations from a re-analysis of the deposited data

How the results depend on the processing

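Of 164 recomputed values 130 stayed the same by the rule set for each, 31 moved, 2 were weaker and 1 was stronger. A level or share counted as the same if it moved by no more than its SD over both libraries. Leaving out 1 library cannot move a mean of 2 by more than that SD. Levels and shares therefore stayed the same by construction when 1 library was left out, as did the number of Pdgf genes expressed. Only the log2 ratios have a direction, and none of them changed it. The count minimums and the common dispersion leave those ratios as they were by construction. Pdgfra stayed at rank 1 and Pdgfrb at rank 4 among the receptor kinases in each library alone. They also did with M21 lengths, a setting that took TPM over the genes found in M21 only. Restricting TPM to features of at least 200 bp or to protein-coding genes multiplies all kinases of a library alike. Those 2 settings could thus not change ranks or shares within a library. All 6 Pdgf genes passed thresholds of 0.5, 5 and 10 TPM. TPM over features of at least 200 bp gave 44.3 for Pdgfa, 86.1 for Pdgfc, 14.8 for Pdgfd, 411.04 for Pdgfra and 190.4 for Pdgfrb. TPM over protein-coding genes gave 47.6 for Pdgfa, 16.2 for Pdgfb, 92.4 for Pdgfc, 15.9 for Pdgfd, 441.2 for Pdgfra and 204.4 for Pdgfrb. TPM from GENCODE M21 exon lengths gave 49.5 for Pdgfa, 96.2 for Pdgfc, 16.3 for Pdgfd, 308.6 for Pdgfra and 212.8 for Pdgfrb, with shares of 6.79% for Pdgfb, 55.3% for Pdgfc and 59.2% for Pdgfra. That length set, which adds exons to Pdgfra and Pdgfb, left 4 of 6 genes in their place in the order, since Pdgfb and Pdgfd swapped; leaving out 1 library left 4 (without replicate 2) to 6 (without replicate 1). With the length of 1 gene changed at a time, also chosen after seeing the data, Pdgfra stood at 247.5 TPM and rank 2 among the kinases, Pdgfb at 9.47 TPM with 4 of 6 genes in their place, and Pdgfa at 53.7 TPM.

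With the edgeR common dispersion the log2 ratios of Pdgfb (0.32) and Pdgfrb (0.084) no longer passed, so 0 Pdgf genes were higher, with none at an unadjusted p under 0.05 (all genes: 1019 unadjusted, 146 adjusted). Of the pathway genes 1 was then higher and 0 lower. By contrast, the scaling implied by the TPM, added after seeing the data, made the Pdgfra ratio of 0.066 pass and left 0 pathway genes lower. A minimum of 100 counts left 0 pathway genes past 2-fold, because Plg was not tested. Depth limits Pdgfb and Pdgfd most, at 293 to 355 counts a library. Leaving out 1 library gives no ratio between libraries. No paired analysis was possible because the series has 1 group.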

Other observations

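The Pdgf receptor genes lie in clusters with related kinase genes. The protein-coding gene listed next after Pdgfra was Kit, 376.7 kb away, at 11.0 and 12.5 TPM in replicates 1 and 2, and the one before it, the homeobox gene Gsx2, 74.7 kb away, had 0 counts in both. Beyond Kit on the same chromosome lies Kdr, at 51.4 and 48.1 TPM. Pdgfrb had Csf1r 20.5 kb away at 58.0 and 55.7 TPM, and on its other side the homeobox gene Cdx1, 8.95 kb away, had 0 counts in both. In each cluster the Pdgf receptor gene was thus the highest of those named.

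The protein-coding genes nearest in level to Pdgfra, by the Euclidean distance of log2(TPM + 1) over the 2 libraries, were Prrc2a (362.6 and 378.3 TPM, distance 0.012), Anxa5 (365.6 and 366.0 TPM, 0.047) and Ckap4 (373.1 and 373.9 TPM, 0.053). Nearest to Pdgfrb were Usp47 (162.4 and 178.02 TPM, 0.0083), Sertad4 (166.2 and 178.1 TPM, 0.025) and Wls (163.1 and 174.8 TPM, 0.025). With 2 libraries this likeness is one of level.

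Further marker lists give the makeup of the folds beside the Pdgf levels, as summed TPM in replicates 1 and 2. They were 3921 and 4062 for skeletal muscle (10 of 10 genes at 1 TPM or more in both), 557.6 and 572.8 for mesothelium (8 of 8), 474.7 and 430.5 for macrophages (8 of 8), 207.4 and 235.4 for neural crest and Schwann precursors (6 of 6) and 6026 and 5677 for erythroid cells (8 of 8). Urogenital genes summed to 34.4 and 14.1 (2 of 7), cardiac genes to 78.9 and 104.6 (2 of 5) and lung epithelial genes to 4.41 and 4.78 (1 of 5, with Nkx2-1 at 0 counts in both).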
